A study of Mus musculus with 12 samples.

Results

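A set of 10 genes of the elastic fibre and of the small proteoglycans that sit on collagen fibrils were followed in mouse lung around birth and in adult liver. They were Eln, Fbn1, Fbn2, Fbln5, Lox, Loxl1, Mfap4, Emilin1, Lum and Dcn, chosen by name. A gene entered where a probe set of the array carried that single gene name, and the brightest such probe set in each tissue stood for it. This gave 9 of the 10 genes, among 17097 genes measured in all. Fbn1, which encodes fibrillin 1, had no probe set of its own name in the annotation used here and was not analysed here.

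Expression was measured on 12 Affymetrix mouse arrays, 6 of lung and 6 of liver, all from C57BL/6 mice. The study asked how a mother that lacks Abcb11, the bile salt export pump of the liver, affects the lungs of her offspring. All lung donors were Abcb11+/-. They came from Abcb11-/- females crossed with wild-type (WT) males or from WT females crossed with Abcb11-/- males, at embryonic days 17.5 (E17.5) and 18.5 (E18.5) and on the day of birth (PN0). The parents' genotypes were exchanged together, so a difference between the crosses cannot be told apart as one of the mother or of the father. There was 1 lung array for each mother at each stage, and the number of animals on it is not stated. A legend on lung gene expression, which also covers Q-PCR, gives 3 animals for each mother at E18.5 and at PN0. The livers were from 1.5-month-old female mice, 3 Abcb11-/- and 3 WT. Each label speaks of 1 mouse and none says how the mice were drawn, so the spread between these samples may be partly technical. In the liver the p-values measure that spread. In the lung model of stage and mother, they measure against how far the difference by mother varies between stages. A lung difference by mother confined to 1 stage thus counts as spread.

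Elastic fibres give the lung and the vessel wall their recoil. Tropoelastin, the product of Eln, is laid down on microfibrils of fibrillin with the help of fibulin 5, and lysyl oxidases then cross-link it into insoluble elastin. In the lung this matrix is made by fibroblasts, myofibroblasts and smooth muscle cells, and elastin is required for the airspaces to be divided into alveoli. Lumican and decorin, the products of Lum and Dcn, are small leucine-rich proteoglycans that bind collagen fibrils and limit their width. In the liver they come mainly from stellate cells and portal fibroblasts.

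One lung array stood apart. At E17.5, the Abcb11-/- mother's array had 9 of 10 hepatocyte genes past 1.5-fold above the WT mother's (median log2 difference 5.14) and 10 of 11 skeletal muscle genes (4.22). The summed level of the hepatocyte genes, on a log2 scale, was 14.50 there, against 10.92 on the WT mother's array of that stage and 10.95 to 11.53 on the other lung arrays. Alb, which encodes albumin, was at a log2 value of 13.01, against 9.05. Smooth muscle genes were lower on that array (5 of 9 at least 1.5-fold, median -0.84), as were cell cycle genes (5 of 9, median -0.63). The changes from E17.5 to E18.5 of the members that had an unadjusted p under 0.05 are also given without it, as is the difference of each member by mother. In the liver, Abcb11 had log2 values of 2.90, 3.14 and 3.26 in Abcb11-/- mice, against 11.22, 11.04 and 10.88 in WT mice, as the labels say. Lung arrays had medians of 3.63 to 3.68, and liver arrays of 3.15 to 3.18. The tissues differ in these medians and may have been processed separately, so no level is compared between them. None is compared between genes either, since probe sets differ in brightness.

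Eln, Fbln5 and Loxl1 were higher at E18.5 than at E17.5 in both crosses, and Fbn2 was lower. None of these differences passed the threshold of an adjusted p under 0.05 in the limma model of stage and mother. In bulk tissue, fewer cells of a type and less RNA per cell cannot be told apart.

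Eln had log2 values of 11.17 at E17.5, 11.64 at E18.5 and 11.53 at PN0 with an Abcb11-/- mother. With a WT mother the values were 11.14, 11.95 and 11.88. Both E17.5 arrays were below all 4 later ones. How many of all genes had stages set apart like this was not counted, here or for the genes below. The change to E18.5 over both mothers was 0.64 on the log2 scale (95% interval 0.26 to 1.03, 1.56-fold, limma adjusted p = 0.196). A second probe set of Eln gave 0.80. From E18.5 to PN0 the change was -0.09 (-0.48 to 0.29), a difference within the spread. The E18.5 and PN0 arrays of the Abcb11-/- mother lay 0.31 and 0.35 below those of the WT mother for Eln.

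Fbln5, which encodes fibulin 5, the bridge between elastin and the microfibril and the cell surface, had log2 values of 9.67, 10.28 and 10.40 at the 3 stages with an Abcb11-/- mother. With a WT mother they were 9.91, 10.44 and 10.29. Here too both E17.5 arrays were the lowest. The change to E18.5 was 0.57 (0.20 to 0.94, adjusted p = 0.221), and the change to PN0 was -0.02 (-0.38 to 0.35).

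Loxl1, a lysyl oxidase tied to fibulin 5 in elastin assembly, was at 8.82, 9.17 and 9.15 with an Abcb11-/- mother and at 8.64, 9.09 and 9.39 with a WT mother. The E17.5 arrays were again lowest. The change to E18.5 was 0.40 (0.01 to 0.79, adjusted p = 0.376). Lox, the founding lysyl oxidase, showed no such difference, with values between 11.43 and 11.75 on all 6 arrays and a change of -0.07 (-0.39 to 0.24). The interval for Lox excludes a rise as large as that fitted for Eln, and without the Abcb11-/- mother's array of E17.5 the change was -0.096. A second bright probe set of Lox gave -0.28.

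Fbn2 encodes fibrillin 2, the microfibril protein made mainly before birth. Its log2 values were 9.89, 8.85 and 8.17 at E17.5, E18.5 and PN0 with an Abcb11-/- mother, and 10.67, 8.79 and 8.13 with a WT mother. The stages did not overlap, and each later stage was lower than the one before with both mothers. Fbn2 differed most among the 9 genes, at 2.77-fold lower at E18.5 than at E17.5 (log2 change -1.47, interval -2.05 to -0.89, adjusted p = 0.111). From E18.5 to PN0 it was lower by a further log2 change of -0.66 (-1.25 to -0.08, adjusted p = 0.362). Without the Abcb11-/- mother's array of E17.5, the first change was -1.88, with a single array left at E17.5. The change was then 0.83 for Eln, 0.46 for Fbln5 and 0.54 for Loxl1. With a variance prior that follows the mean level, both Eln (adjusted p = 0.0306) and Fbn2 (0.0274) passed, with 197 of 17097 genes called, against 10 with the standard prior.

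**Figure D1:**
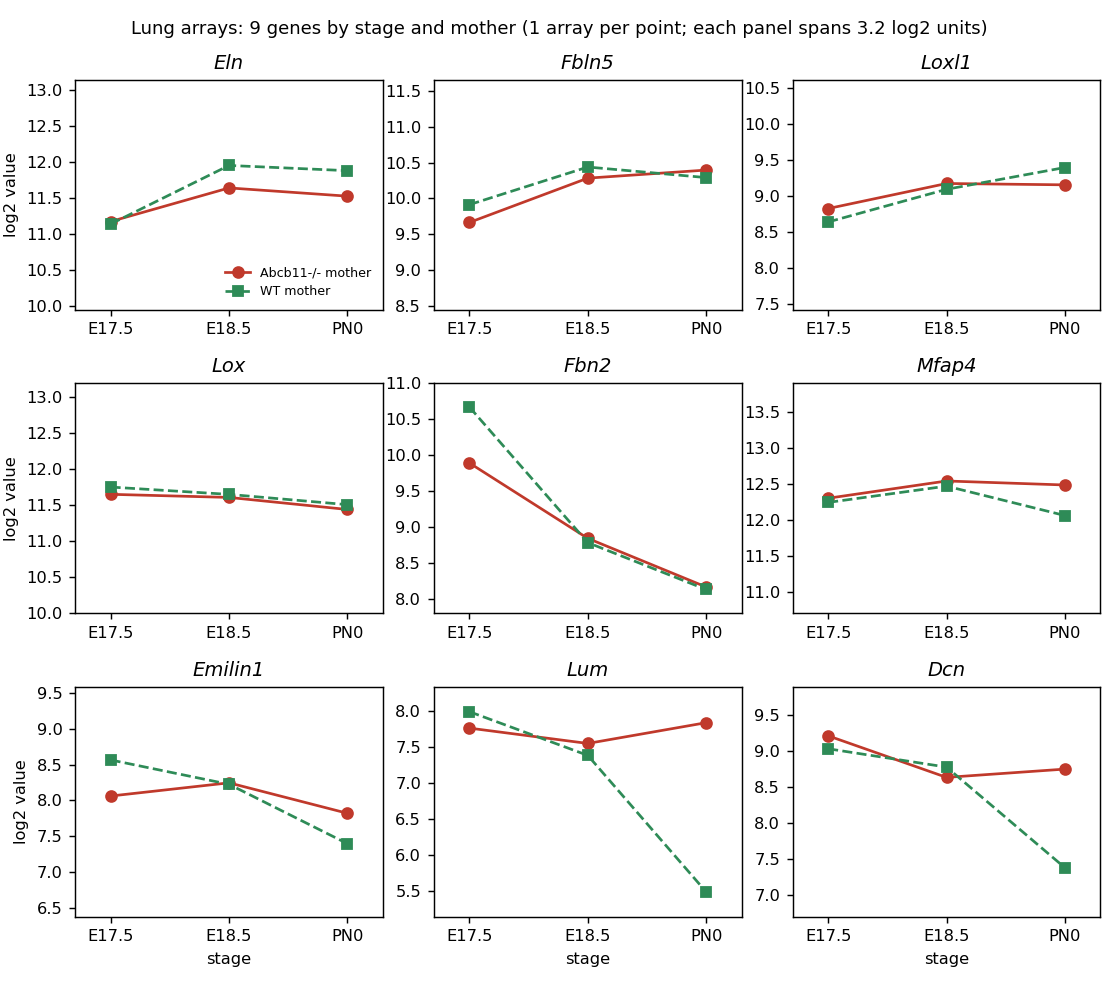
Log2 values of the 9 genes on the 6 lung arrays, by stage (horizontal axis) and mother (red circles, Abcb11-/-, and green squares, WT), with 1 array per point and panels of the same height in log2 units. Eln, Fbln5 and Loxl1 were lowest at E17.5, Fbn2 was lower at each later stage, and Lum and Dcn lay apart only on the PN0 array of the WT mother.

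Over all 9 genes, limma called 0 members between E17.5 and E18.5, against 0.0585% of all genes tested (10 genes). At an unadjusted p under 0.05 there were 4 of 9 members, against 12.8% of all genes. The 4 were Eln, Fbln5, Loxl1 and Fbn2. Between E18.5 and PN0 it called 0 members, against 0% of all genes. Fbn2 and Emilin1 had an unadjusted p under 0.05 there (12.3% of all genes did). The model has 2 residual degrees of freedom, and both stage comparisons use the same E18.5 arrays. Single arrays were also set against each other by a fold of 1.5. With an Abcb11-/- mother, Fbln5 was the single member at least 1.5-fold higher at E18.5 than at E17.5 (4.28% of all genes were) and Fbn2 the single one lower (3.61%). With a WT mother, Eln was higher (5.77%) and Fbn2 and Lum lower (6.76%).

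**Figure D2:**
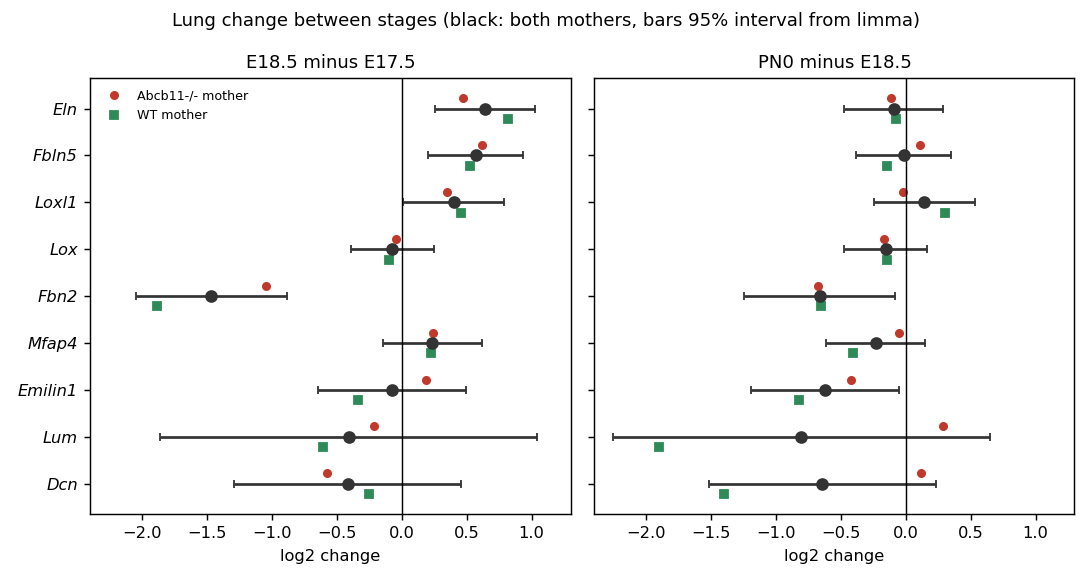
Log2 change between stages in lung, E18.5 minus E17.5 (left) and PN0 minus E18.5 (right), for each of the 9 genes. Red circles are the difference of 2 arrays of Abcb11-/- mothers, green squares that of WT mothers, and black circles the limma estimate over both with its 95% interval. At E18.5 the intervals of Eln, Fbln5, Loxl1 and Fbn2 do not include 0. In both panels the intervals of Lum and Dcn are the widest.

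Emilin1 and Mfap4 encode proteins of the elastin and microfibril interface. Emilin1 had log2 values of 8.06, 8.25 and 7.82 with an Abcb11-/- mother and 8.56, 8.23 and 7.40 with a WT mother. It was lowest at PN0 with both mothers, with a change from E18.5 of -0.62 (-1.19 to -0.06, adjusted p = 0.377). Mfap4 had values of 12.31, 12.55 and 12.49 with an Abcb11-/- mother and 12.25, 12.47 and 12.07 with a WT mother, and its change to PN0 was -0.23 (-0.61 to 0.15).

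Lum and Dcn, the proteoglycan genes among the members, differed by mother at PN0. Lum was 5.11-fold and Dcn 2.59-fold higher at PN0 with an Abcb11-/- mother than with a WT mother. The array that stood apart was that of the WT mother, where both genes were at their lowest of the 6 arrays. At E17.5 and E18.5 both genes were within 1.5-fold between the mothers. Each stage has 1 array per mother, so these differences have no replicate check.

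Lum had log2 values of 7.77, 7.55 and 7.84 at E17.5, E18.5 and PN0 with an Abcb11-/- mother. With a WT mother they were 7.99, 7.39 and 5.49. Of the 6 arrays, 5 thus lay between 7.39 and 7.99, and only the PN0 array of the WT mother was outside. The difference between the mothers was -0.23 at E17.5, 0.17 at E18.5 and 2.35 at PN0. Among all 17097 genes, 7 had a difference at PN0 of this size or more in the same direction, and among the 5412 genes at a log2 value of 7 or more on at least 1 of the PN0 arrays, 5 did.

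Dcn had log2 values of 9.21, 8.63 and 8.75 with an Abcb11-/- mother, against 9.03, 8.77 and 7.37 with a WT mother. The other 5 arrays lay between 8.63 and 9.21. The differences were 0.18, -0.14 and 1.37 at the 3 stages, and 50 of 17097 genes had a difference at PN0 as large as that of Dcn or larger. Lum and Dcn are neighbours on mouse chromosome 10, with Dcn just before Lum in the RefSeq gene order and Kera and Epyc close by on the other side. Kera and Epyc, proteoglycan genes of the cornea and of cartilage, were between 2.60 and 3.07 on all lung arrays, below the array medians.

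The change from E18.5 to PN0 was 0.29 for Lum and 0.12 for Dcn with an Abcb11-/- mother. With a WT mother it was -1.90 for Lum and -1.40 for Dcn. The limma estimate over both mothers was -0.81 for Lum (interval -2.26 to 0.65) and -0.64 for Dcn (-1.52 to 0.23), and neither passed (adjusted p = 0.646 and 0.535). Over the 3 stages the difference by mother was 0.76 for Lum (-0.42 to 1.95, adjusted p = 0.934) and 0.47 for Dcn (-0.24 to 1.18, adjusted p = 0.934). Without the PN0 array of the WT mother the difference for Lum was -0.03. The model counts a difference by mother at a single stage as spread, so it cannot test the one at PN0.

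At PN0, 4 members were at least 1.5-fold lower than at E18.5 with a WT mother (Fbn2, Emilin1, Lum and Dcn), where 6.46% of all genes were, and none was as much higher (5.03%). With an Abcb11-/- mother only Fbn2 was (3.64% lower, 2.72% higher among all genes). The difference between the mothers was at least 1.5-fold for 2 members at PN0, both higher with the Abcb11-/- mother (4.16% of all genes) and none lower (2.88%). It was so for 0 members at E18.5 (2.13% of all genes higher, 1.26% lower). At E17.5, Fbn2 was 1.72-fold lower with the Abcb11-/- mother (3.55% of all genes were lower by 1.5-fold) and no member was higher (3.47%). Fbn2 thus differed on the array that stood apart, with values of 9.89 and 10.67. The limma model called 0 members by mother over the 3 stages, against 0% of all genes, with 0 of 9 members and 5.07% of all genes at an unadjusted p under 0.05. Eln had an estimate of -0.21 (-0.52 to 0.10). Without the Abcb11-/- mother's array of E17.5 the difference by mother was -0.33 for Eln, 1.26 for Lum, 0.61 for Dcn, 0.25 for Mfap4 and 0.22 for Emilin1. It was 0.047 for Fbn2, -0.025 for Fbln5, -0.055 for Lox and -0.080 for Loxl1, and no member passed.

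**Figure D3:**
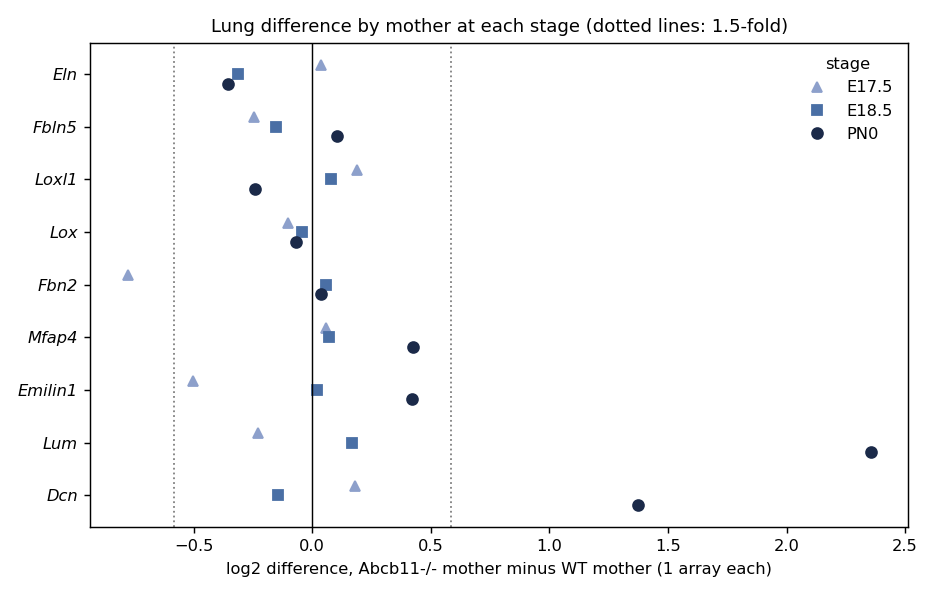
Log2 difference of lung arrays, Abcb11-/- mother minus WT mother (horizontal axis), for the 9 genes at E17.5 (triangles), E18.5 (squares) and PN0 (circles), from 1 array of each mother, with dotted lines at 1.5-fold. Lum (2.35) and Dcn (1.37) at PN0 and Fbn2 (-0.78) at E17.5 are the points beyond the dotted lines.

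Other genes of these pathways were listed by role. Of 25 elastic fibre and microfibril partners, 23 were measured, and of 15 other small leucine-rich proteoglycans 13. At PN0, 2 partners were at least 1.5-fold higher with the Abcb11-/- mother and 3 lower, with a median log2 difference of 0.02 (0.01 over all genes). Efemp1, which encodes fibulin 3, was at 7.51 with the Abcb11-/- mother and 6.52 with the WT mother, a log2 difference of 0.99. Fbln1, which encodes fibulin 1, was at 7.70 and 6.83. Efemp1 and Fbln1, like Lum and Dcn, were lower on the PN0 array of the WT mother than on the other 5 lung arrays. They were named for their PN0 difference, which favours a low value there. The share of all genes lowest on that array was not counted. The lower ones were Adamtsl5 (3.07 and 4.26), a binder of fibrillin, the lysyl oxidase Loxl2 (5.54 and 6.23) and Adamtsl4 (7.32 and 7.92).

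Among the other small leucine-rich proteoglycans, Prelp, which anchors matrix to basement membranes, was at 6.32 with the Abcb11-/- mother and 5.48 with the WT mother, a difference of 0.84. It was the only one of 13 past 1.5-fold at PN0 (median 0.15). Bgn, which encodes biglycan and is closely related to Dcn, was at 11.04 and 10.92. At E18.5, no gene of these lists passed 1.5-fold. On the E17.5 arrays, 3 partners were lower with the Abcb11-/- mother, namely Loxl3 (5.09 and 5.98), Fbln1 (7.67 and 8.46) and Vcan, the large proteoglycan versican (8.58 and 9.28), and so was Fmod, the collagen-binding fibromodulin (7.64 and 8.68). In both lists limma called 0 genes by stage or by mother. Vcan, like Fbn2, was lower at E18.5, at 7.28 with an Abcb11-/- mother and 7.30 with a WT mother.

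**Figure D4:**
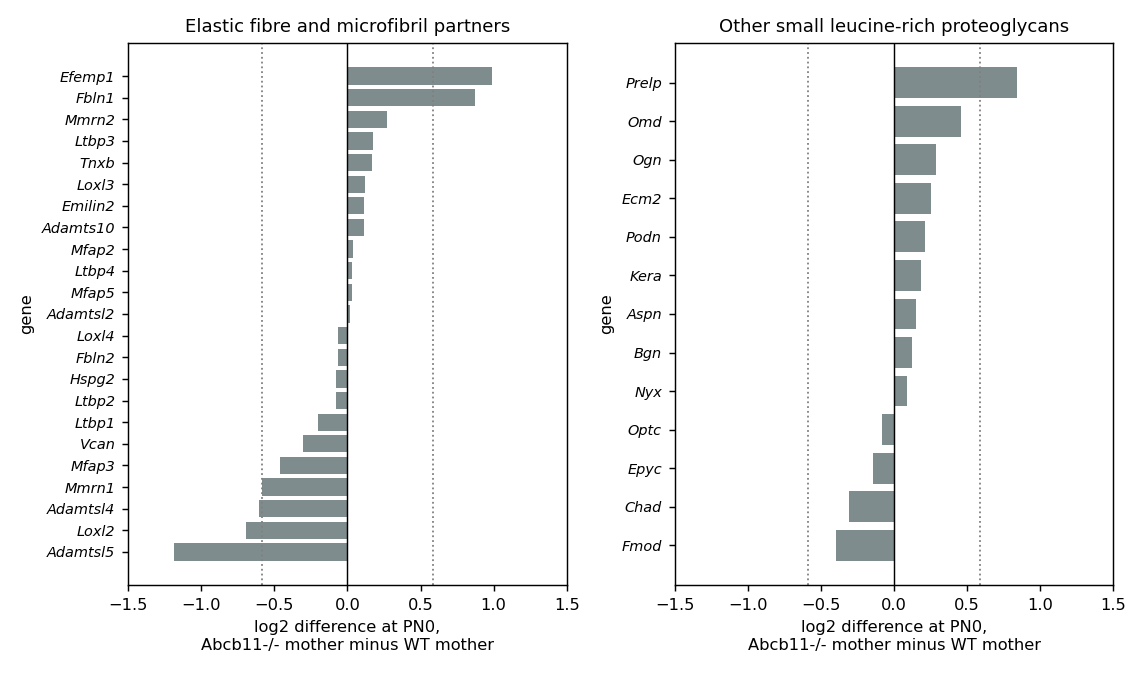
Log2 difference at PN0, Abcb11-/- mother minus WT mother, for 23 elastic fibre and microfibril partners (left) and 13 other small leucine-rich proteoglycans (right), from 1 lung array of each mother, with dotted lines at 1.5-fold. Most bars are short, and Efemp1 (0.99), Fbln1 (0.87) and Prelp (0.84) reach furthest to the right.

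Markers of the cells that make these proteins were listed beside them. At PN0, 3 of 14 lung fibroblast genes passed 1.5-fold upwards with the Abcb11-/- mother (Wnt2, at 8.05 and 7.13, Fgf10, at 5.79 and 4.91, and Col14a1, at 9.78 and 9.12). Inmt was lower, at 10.10 and 11.01. The list's median was 0.08, and its summed level on a log2 scale was 13.16 with the Abcb11-/- mother and 13.18 with the WT mother. Tcf21, a transcription factor of lung fibroblasts, was at 11.56 and 11.44.

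Smooth muscle genes had a median of 0.43 (2 of 9 higher, 1 lower, summed level 12.28 and 11.94). Heart muscle genes had a median of 0.68 (6 of 11 higher, 11.32 and 10.73), cartilage genes 0.25 (4 of 13 higher, 8.82 and 8.65), and mesothelial genes 0.06 (1 of 6 higher, 11.05 and 10.95). The mesothelial one was Lrrn4, at 5.79 and 4.40. Hepatocyte genes had a median of 0.44 (3 of 10 higher, 11.52 and 10.95), with Alb at 6.66 with the Abcb11-/- mother and 5.38 with the WT mother. Cell cycle genes had a median of 0.41 (1 of 9 higher, 10.33 and 10.002), skeletal muscle genes -0.18 (2 of 11 higher, 3 lower, 7.84 and 7.89) and endothelial genes -0.02 (0 of 10 higher, 1 lower, 12.74 and 12.85). The list of collagen and myofibroblast genes had none past 1.5-fold (0 of 8, median 0.02, 13.95 and 13.75). The part of these lists in the difference of Lum and Dcn was not tested.

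The genes whose lung profile was most like that of Eln were Calcrl, a vascular peptide receptor (r = 0.98), Icam2 (0.96), Scel (0.96), Dpep1 (0.96) and Clec1a (0.95). They came from 1122 genes whose log2 values averaged 6 or more and spanned 1 or more. All are correlations over the same 6 arrays, which share stage and processing, and are given as a description. Calcrl, picked by its r with Eln, was likewise lowest at E17.5, at 9.53 with an Abcb11-/- mother and 9.31 with a WT mother. Among the members, r with Eln was 0.85 for Fbln5, 0.85 for Loxl1 and -0.80 for Fbn2. The genes most like Lum were Dync2li1 (0.99), Unc5c, a netrin receptor (0.99), Phex (0.99), Rdm1 (0.99) and Arhgap18 (0.98), from 1121 genes. Unc5c was at 7.51 at PN0 with the Abcb11-/- mother and 5.39 with the WT mother, and between 7.34 and 7.85 on the other 4 arrays. Dcn had r = 0.96 with Lum. Dcn had its lowest value on the PN0 array of the WT mother. So did the 5 genes most like Lum, which follows from how they were picked.

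In the liver of Abcb11-/- mice, Lum and Dcn were within 1.5-fold of their level in WT mice. No member was called by genotype, against 4.33% of all genes called higher and 2.91% lower (7.24% either way). At an unadjusted p under 0.05, limma had 3 of 9 members (21.6% of all genes), all higher, namely Fbn2, Lox and Eln. The equal-variance test that the methods name gave 1 member, Fbn2, at the same level (3129 of 17097 genes) and none after Benjamini-Hochberg adjustment (49 genes).

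Lum had log2 values of 7.73, 7.47 and 7.30 in Abcb11-/- livers, against 7.41, 7.78 and 7.76 in WT livers. The groups overlapped, and the difference was -0.15 (-0.49 to 0.19, adjusted p = 0.638). Dcn had 10.77, 10.99 and 11.01 in Abcb11-/- livers and 11.23, 11.02 and 11.05 in WT livers, a difference of -0.18 (-0.42 to 0.07, adjusted p = 0.406). All 3 Abcb11-/- values of Dcn were below the WT values, by as little as 0.01. The interval for Lum excludes a 1.5-fold change either way, and so does that for Dcn.

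Eln had log2 values of 5.42, 4.24 and 3.84 in Abcb11-/- livers, against 3.55, 3.50 and 3.81 in WT livers. The groups did not overlap, and the third Abcb11-/- array lay 0.03 above the highest WT array. The difference was 0.88 (0.04 to 1.72, 1.84-fold, adjusted p = 0.211), and 0.42 without Abcb11-/- replicate 1. The WT values were near the array medians, and the second probe set of Eln gave 0.06.

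Loxl1 had 5.72, 4.38 and 4.51 in Abcb11-/- livers and 4.05, 4.40 and 4.08 in WT livers, and the groups overlapped (0.69, -0.08 to 1.46, adjusted p = 0.283). Without Abcb11-/- replicate 1 the difference was 0.27. Lox had 3.79, 3.33 and 3.06 in Abcb11-/- livers and 3.13, 2.83 and 2.73 in WT livers (0.50, 0.05 to 0.95, adjusted p = 0.189). Lox was dim, with all WT values below the array medians, and its other probe sets gave -0.18 and -0.01. Replicate 1 was the highest Abcb11-/- array for Eln, Loxl1 and Lox. It also had the highest Mki67, a marker of dividing cells, at 6.77 against 4.06 and 4.37 in the other Abcb11-/- livers, and the highest Col3a1, a fibrillar collagen gene, at 11.53 against 9.97 and 10.55. The listed macrophage genes were lowest there among the Abcb11-/- livers, such as Adgre1, at 6.95 against 8.10 and 7.43. Marco was the exception, at 5.68 against 6.38 and 5.29. The part of that array's cell makeup in these values was not tested.

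Fbn2 was dim, with 3.14, 2.95 and 3.06 in Abcb11-/- livers and 2.86, 2.69 and 2.70 in WT livers, all below the array medians (0.30, 0.08 to 0.52, adjusted p = 0.112). Fbln5 averaged 6.04 ± 0.37 in Abcb11-/- livers and 6.15 ± 0.39 in WT livers (SD, n = 3 each, limma adjusted p = 0.856). Emilin1 averaged 6.13 ± 0.14 and 6.25 ± 0.04 in Abcb11-/- and WT livers (limma adjusted p = 0.573), and Mfap4 3.66 ± 0.22 and 3.58 ± 0.24 (limma adjusted p = 0.848). Of the 9 members, 3 had groups that did not overlap (Eln, Fbn2 and Dcn), against 26% of all genes.

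**Figure D5:**
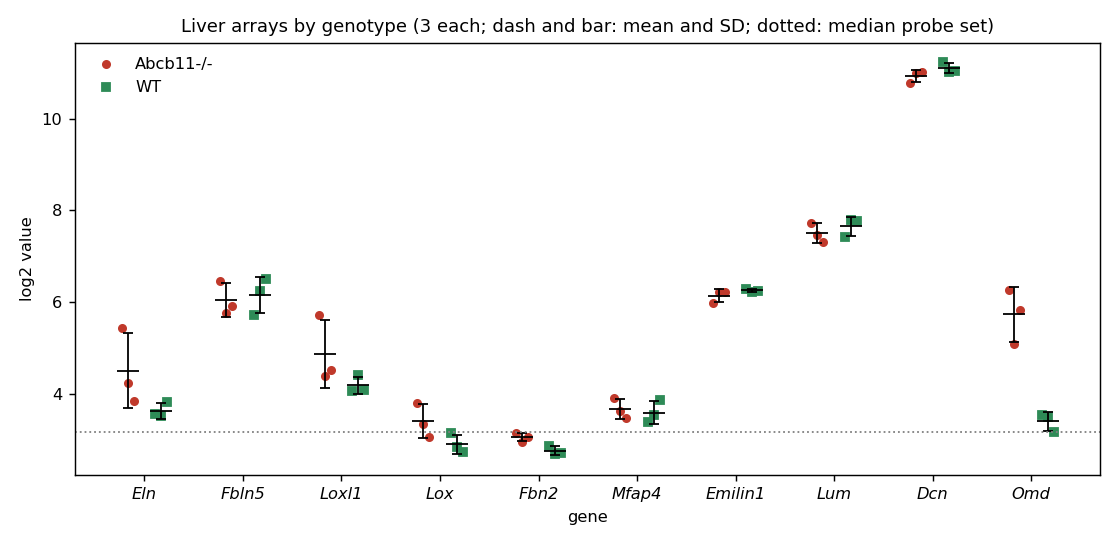
Log2 values of the 9 genes and Omd on 6 liver arrays, Abcb11-/- (red circles, left of each pair) and WT (green squares), 3 each, with the mean and SD, and a dotted line at the median probe set. Only Omd has groups that are far apart (5.08 to 6.27 in Abcb11-/- and 3.16 to 3.53 in WT livers), and the highest Eln, Loxl1 and Lox points are those of Abcb11-/- replicate 1.

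Of the related genes, Omd rose in Abcb11-/- livers. Omd encodes osteomodulin, a small leucine-rich proteoglycan known from bone. It had log2 values of 6.27, 5.08 and 5.83 in Abcb11-/- livers, against 3.53, 3.48 and 3.16 in WT livers. It was 5.05-fold higher (log2 difference 2.34, 1.69 to 2.98, limma adjusted p = 0.00397). The WT values were near the array medians, so the size of the fold rests on a dim WT level. Omd was the single gene called of the 13 other small leucine-rich proteoglycans (median 0.00, as over all genes). Of the 23 elastic fibre and microfibril partners, 0 were called (median -0.07). Omd was also called with any single array left out, but not by the methods' equal-variance test after adjustment over all genes (adjusted p = 0.0935, against limma adjusted p = 0.00397).

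Markers of the liver cells that make this matrix were mixed. Of 12 stellate cell genes, Reln (7.91 ± 0.24 in Abcb11-/- and 8.81 ± 0.06 in WT livers, SD, n = 3 each, limma adjusted p = 0.00803) and Ecm1 (9.07 ± 0.26 and 9.88 ± 0.05, limma adjusted p = 0.0145) fell. Entpd2, an ectonucleotidase of portal fibroblasts, was the only one of 9 genes of that list called, at 6.39 ± 0.49 in Abcb11-/- and 5.41 ± 0.16 in WT livers (limma adjusted p = 0.0449). Of 5 cholangiocyte genes, Epcam (4.33 ± 0.18 and 3.67 ± 0.05) and Sox9 (4.16 ± 0.59 and 3.01 ± 0.12) rose, both from a dim WT level that for Sox9 was below the array medians. By the methods' equal-variance test after adjustment, none of the 5 was called (adjusted p = 0.0947 to 0.221, and 0.0958 for Reln, against 0.00803 by limma). With any single WT array left out, Reln stayed called by limma and the other 4 did not, and limma adjusted p was 0.0539 to 0.0694 for Ecm1, 0.0513 to 0.0561 for Epcam, 0.0985 to 0.162 for Entpd2 and 0.106 to 0.141 for Sox9. Of 8 activated stellate cell and myofibroblast genes 0 were called (median 0.28), and of 9 cell cycle genes 0 (median 0.96). The part of these lists in the levels of Eln, Loxl1, Lox and Omd was not tested. The 5 genes most like Lum over the 6 liver arrays were Stbd1 (r = 0.86), Wee1 (0.84), Tcf21 (0.78), 1810055G02Rik (0.78) and Usp2 (0.78), of 782 genes. Lum itself spanned only 0.48 on the log2 scale there, and these correlations are given as a description.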

How the data were processed

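Total RNA of 6 lung and 6 liver samples was hybridised to Affymetrix HT mouse PM arrays. The authors deposited log2 values summarised by RMA (robust multiarray averaging), and Partek 6.5 is named in the submitters' processing notes. The values were used as deposited and have no detection p-value. Their precision is limited by how few arrays there are. The platform annotation gave 1 gene name to 28898 of the 45037 probe sets, and 28689 of these were matched by gene number to RefSeq. Names from probe sets with several genes were not used. Liver values were tested by genotype, and lung values by stage and mother, with lmFit and eBayes of limma 3.58.1, under R 4.3.3 (adjusted p by Benjamini-Hochberg over all 17097 genes). Differences at 1 stage were described, counting genes at least 1.5-fold apart. The summed level of a list is log2 of its summed unlogged values. The scripts were tested on simulated data.

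The members and lists were chosen with earlier results of these data known. All members are named, with up to 4 genes of each further list per comparison, by the largest called or 1.5-fold difference, and the 5 genes most like Eln or Lum. Calcrl, Unc5c, Tcf21, Bgn, Alb, Mki67, Col3a1, Adgre1, Marco, Kera and Epyc, and Vcan at E18.5, were added after their values were seen. The alternatives tried were averaged probe sets, quantile normalization, median centring, a filter on dim genes, another prior, the replicate number as a block, the methods' equal-variance test, another fold, a brightness minimum, no mother term and leaving out arrays.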

Additional observations from a re-analysis of the deposited data

Results flagged for a closer look

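Among the members, the elastic fibre partners and the other small leucine-rich proteoglycans, 3 genes had PN0 minus E18.5 differences of opposite sign with the 2 mothers and at least 1 apart on the log2 scale. Genes of the cell type lists and all other genes were not searched, for this or for the Fbln1 pattern below. No share over all genes can thus be set beside either. For Lum it was 0.29 with an Abcb11-/- mother and -1.90 with a WT mother. For Dcn it was 0.12 and -1.40, and for Adamtsl5 it was -0.13 and 0.97. Adamtsl5 was dim on every lung array (3.07 to 4.26). Fbln1 differed by mother in opposite ways at 2 stages, at -0.79 at E17.5 and 0.87 at PN0. These differences were not tested, since each rests on 1 array per mother and stage, and the E17.5 value rests on the array that carried hepatocyte and skeletal muscle transcripts.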

How the results depend on the processing

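Under every limma alternative, the number of members called stayed at 0 in the liver and, in the lung, by mother and between E18.5 and PN0. A minimum mean log2 value of 5 left Eln, Fbn2, Lox, Loxl1 and Mfap4 out of the liver, and also Omd, Epcam and Sox9. The methods' equal-variance test gave 1 liver member at an unadjusted 0.05. Between E17.5 and E18.5, 2 members were called with a trended and robust prior (197 of all 17097 genes). Leaving out an array of either stage leaves 1 there, so only the size of the change is given without it. At E17.5, 0 members differed by mother at 2-fold. Replicate numbers did not pair the liver mice, since deviations of mice with the same number correlated at -0.04, -0.04 and -0.14. With the replicate number as a block, 0 members were called, and 671 of all genes against 1238 without it. Entpd2 and Sox9 lost their calls under the block. Directions turned for values near 0 and for some larger ones that rest on few arrays, above all Lum and Dcn, and the cause was not tested. With averaged probe sets, Loxl1 by mother was -0.049 and Fbln5 from E18.5 to PN0 was 0.012. Fbln5 by mother was 0.03 at E17.5, 0.20 at E18.5 and -0.25 at PN0 with averaged probe sets, of which the second was dim (mean 3.19). Without both E17.5 arrays, the difference by mother was 0.047 for Fbn2, -0.080 for Loxl1 and 0.22 for Emilin1.

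With 1 array left out at a time, the liver difference was -0.32 to 0.062 for Fbln5 and -0.043 to 0.21 for Mfap4. The lung difference by mother was -0.37 to 0.047 for Fbn2, -0.080 to 0.13 for Loxl1, -0.24 to 0.22 for Emilin1 and -0.031 to 1.26 for Lum. The change from E17.5 to E18.5 was -0.44 to 0.28 for Emilin1, -1.16 to 0.33 for Lum and -0.88 to 0.043 for Dcn. That from E18.5 to PN0 was -0.20 to 0.014 for Eln, -0.17 to 0.14 for Fbln5, -0.045 to 0.33 for Loxl1, -2.00 to 0.39 for Lum and -1.32 to 0.035 for Dcn.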
